A study of Drosophila melanogaster with 28 samples.

Results

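Ovarian Somatic Sheet (OSS) cells, a cultured line of somatic cells from the Drosophila melanogaster ovary, were compared with the carcass of flies whose ovaries had been removed. The comparison used 4 RNA sequencing libraries of the 28 in the series, 2 of OSS cells and 2 of carcass, and all genes whose name stood on 1 line of the deposited files, 13892 in number. The study as a whole tested genes that silence transposons in the ovary, most of them in libraries not analysed here. The OSS cells were grown at 25 °C in M3 medium with 10% FBS, 5% fly extract, insulin and glutathione. The carcasses came from flies raised at 25 °C on cornmeal-molasses agar and fed with yeast paste, and the age and genotype of these flies were not given in the sources used here. Both kinds of sample were extracted with TRIzol, and 5 ug of total RNA was depleted of ribosomal RNA before the libraries were made. The labels do not say whether the 2 libraries of a group came from separate cultures or separate pools of flies, so the p-values below measure the spread between these samples, which may be technical.

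In the fly ovary somatic follicle cells wrap the germline cysts, secrete yolk proteins and eggshell, and exchange signals with the germline through the Hedgehog, Wnt, Notch, JAK-STAT, EGFR and BMP pathways. These cells also run their own piRNA pathway, in which the helicase Armitage and the Tudor protein Yb load Piwi with small RNAs that guide the silencing of transposons in the nucleus, while the germline uses further PIWI proteins, Aubergine and AGO3, in a perinuclear structure called nuage. OSS cells are used as a model of the follicle cell branch because they divide in culture without germ cells, whereas the carcass contains muscle, fat body, gut, nerve, eye, cuticle and blood cells.

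The values were FPKM, fragments scaled to the length of the transcript in kilobases and to the number of mapped fragments, and summed to 629055 and 620926 in OSS and 543221 and 613249 in carcass. Genes at 1 FPKM or more numbered 9383 and 9259 in OSS and 9724 and 10986 in carcass. The 2 libraries of a group had a Spearman correlation across genes of 0.974 in OSS and 0.968 in carcass, and the median gap between them on the log2(FPKM + 1) scale was 0.111 in OSS and 0.348 in carcass, so the carcass libraries were the less alike. The read totals are unknown, so no counting error is given for single genes. A value of 0 was not always a level of 0, because 13 and 13 genes were under 0.001 FPKM in 1 OSS library and over 5 FPKM in the other, and 92 genes were so in carcass replicate 1 and 4 in carcass replicate 2. Carcass replicate 1 also lacked a number for 964 of the 13892 genes and carcass replicate 2 for 5.

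Most defining markers stood where the labels put them, with 1 exception on the OSS side, and transcripts abundant in ovary were also measured in carcass. The gene tj, for the follicle cell transcription factor Traffic jam, stood at 84.2 and 87.9 FPKM in OSS against 3.12 and 3.93 FPKM in carcass. The gene fs(1)Yb, for Yb, stood at 49.4 and 48.6 FPKM in OSS against 0 and 0.111 FPKM in carcass. Fas3, an adhesion molecule that marks follicle cells, was on the other side, at 34.2 and 29.8 FPKM in OSS against 64.1 and 58.8 FPKM in carcass. The myosin gene Mhc was at 0.616 and 0.432 FPKM in OSS against 900.0 and 685 FPKM in carcass, and the opsin gene ninaE at 0.562 and 0.490 FPKM in OSS against 625 and 822 FPKM in carcass. The oocyte determinant osk was at 0.294 and 0.384 FPKM in OSS and 23.5 and 29.5 FPKM in carcass, compared with 395 and 413 FPKM in the 2 ovary libraries of the series. The eggshell gene Cp38 was at 0 and 0.375 FPKM in OSS and 264 and 39.1 FPKM in carcass, compared with 1444 and 1484 FPKM in ovary. Where these transcripts in carcass came from was not tested.

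Genes were compared on the scale log2(FPKM + 1), and log2 differences are OSS minus carcass throughout. On this scale the change of a gene at low FPKM is understated. Of 11488 genes tested 8733 differed, by limma at a Benjamini-Hochberg adjusted p under 0.05, which is 76.0% of the genes tested. In OSS 5295 were higher (46.1%) and 3438 were lower (29.9%). At least 2-fold differences numbered 4300 higher and 3006 lower in OSS, at least 4-fold 2086 and 2102, and at least 32-fold 45 and 532. The higher genes were thus more numerous and the lower genes more extreme. Genes at 10 FPKM or more in both OSS libraries and under 1 FPKM in both carcass libraries numbered 81, and the reverse held for 752. A core of 7759 genes was at 1 FPKM or more in all 4 libraries. The balance of directions depended on the scaling. Over all genes tested the median log2 difference was 0.51. Quantile normalization put it at 0.43 and median-ratio scaling at -0.23, and the share of calls that were higher in OSS was 60.6% as deposited and 41.3% after median-ratio scaling.

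**Figure D1:**
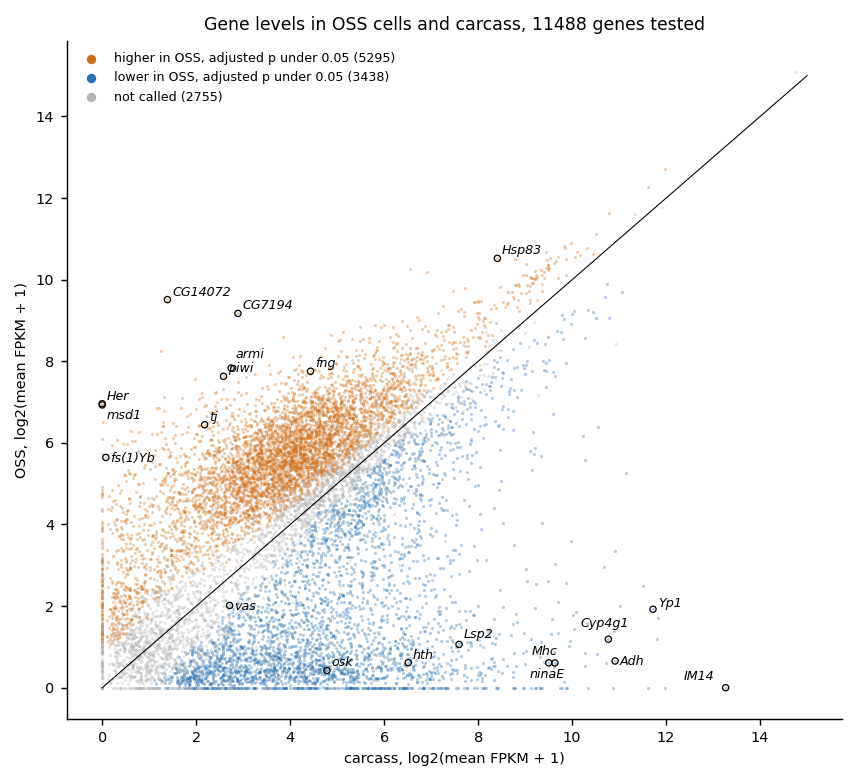
Mean level of each of the 11488 genes tested in OSS (vertical axis) and carcass (horizontal axis), both as log2(mean FPKM + 1), with 1 point per gene and the line of equal levels. Genes called higher in OSS (5295) are orange, genes called lower in OSS (3438) are blue and the rest are grey. Called genes at least 32-fold higher in OSS numbered 45, against 532 at least 32-fold lower. The blue points reach far along the lower edge, where Mhc, ninaE and IM14 have high carcass levels.

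The 12 genes with the largest positive differences and a value in all 4 libraries were led by genes without a described function. CG14072 stood at 728 and 729.8 FPKM in OSS against 0 and 3.23 FPKM in carcass, a log2 difference of 8.47 (adjusted p = 1.92e-05, SE 0.59). CG15323, named karr in the current annotation, stood at 299 and 309.7 FPKM in OSS against 0 and 2.74 FPKM in carcass, a difference of 7.30 (adjusted p = 2.84e-05, SE 0.56). In both of them the OSS libraries were close together and the carcass libraries were at or near 0. Of the 12, 3 were listed at 0 in both carcass libraries. These were Her (now Hesr), a member of the Hairy-related transcription factors, at 131 and 116 FPKM in OSS, msd1, for an augmin subunit that serves the mitotic spindle, at 129 and 113 FPKM in OSS, and CG5367 (now CtsL4, of the cathepsin L group), at 65.4 and 69.0 FPKM in OSS. A forkhead transcription factor gene, croc, was at 96.1 and 106 FPKM in OSS against 0 and 1.10 FPKM in carcass, a difference of 6.14 (adjusted p = 1.09e-05, SE 0.37). The mitotic kinase gene ial (Aurora B) was at 135 and 140.0 FPKM in OSS against 0.382 and 2.62 FPKM in carcass, a difference of 5.95 (adjusted p = 2.26e-05, SE 0.43). CG7194 was measured at over 5 FPKM in every library, at 580.0 and 572 FPKM in OSS against 6.52 and 6.28 FPKM in carcass, a difference of 6.28 (adjusted p = 1.17e-06, SE 0.17). The Mediator subunit gene MED9 was at 106 and 73.2 FPKM in OSS against 0 and 0.0101 FPKM in carcass, a difference of 6.47 (adjusted p = 0.00601, SE 1.50). Its call was lost without OSS replicate 1 (6.21). In the 2 ovary libraries MED9 was at 43.3 and 0.00884 FPKM, so its estimates were unstable between libraries of a group. CG30095 had 5.95, CG42565 5.86 and CG7795 (now mtsh) 5.78 as log2 differences. For all 12 the lower OSS value lay above the higher carcass value. This adds no support, because the genes were chosen for their large differences in these same libraries.

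The 12 largest negative differences included secreted products of the fat body. IM14, an immune-induced peptide gene (now Dso2), was listed at 0 in both OSS libraries and stood at 10020.4 and 9681 FPKM in carcass. CG15068 (now BomS6), of the Bomanin family of host defence peptides, was at 0 and 0 FPKM in OSS against 3101 and 4928 FPKM in carcass. Its relatives IM3 and IM2 (now BomS3 and BomS2) had log2 differences of -10.88 (adjusted p = 5.15e-06, SE 0.52) and -10.59 (adjusted p = 1.86e-05, SE 0.73). Adh, for alcohol dehydrogenase, was at 0.148 and 1.00 FPKM in OSS against 1802 and 2055 FPKM in carcass, a difference of -10.31 (adjusted p = 1.14e-05, SE 0.63). The yolk protein gene Yp1 was at 4.59 and 0.999 FPKM in OSS against 2929.6 and 3816 FPKM in carcass, a difference of -9.97 (adjusted p = 4.36e-06, SE 0.44). The neuropeptide-like gene Nplp2 was at 1.03 and 0 FPKM in OSS against 1499.8 and 1861 FPKM in carcass, a difference of -10.20 (adjusted p = 5.26e-06, SE 0.50). The other 5 were listed at 0 in both OSS libraries. Their carcass levels were 1702 and 2035 FPKM for CG6503, 1092 and 1487 FPKM for CG34166, 918 and 984 FPKM for CG34172 (now COX7AL2, a cytochrome c oxidase subunit gene), 781 and 1087 FPKM for CG42725 and 2758 and 3525 FPKM for the small RNA gene snmRNA:357. In each of the 12 both OSS libraries lay below both carcass libraries, which likewise adds no support, given how these genes were chosen. In a mixed tissue such as the carcass, fewer cells of a type and less RNA per cell cannot be told apart, which applies to every difference given here.

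Genes were next grouped by function in lists, which are described by the number of their members called in each direction and by their median, beside the 46.1% and 29.9% and the median of 0.51 over all genes tested. Some genes were counted in more than 1 list. For example, mael was in both piRNA lists and among the germline markers, and Yp1 was among the yolk and the fat body genes. Genes of cell division, ribosome assembly and small RNA pathways were mostly higher in OSS, several signalling, matrix and adhesion lists had calls in both directions at shares near those of all genes, and genes of differentiated tissues, energy metabolism and the cytochrome P450 family were mostly lower.

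**Figure D2:**
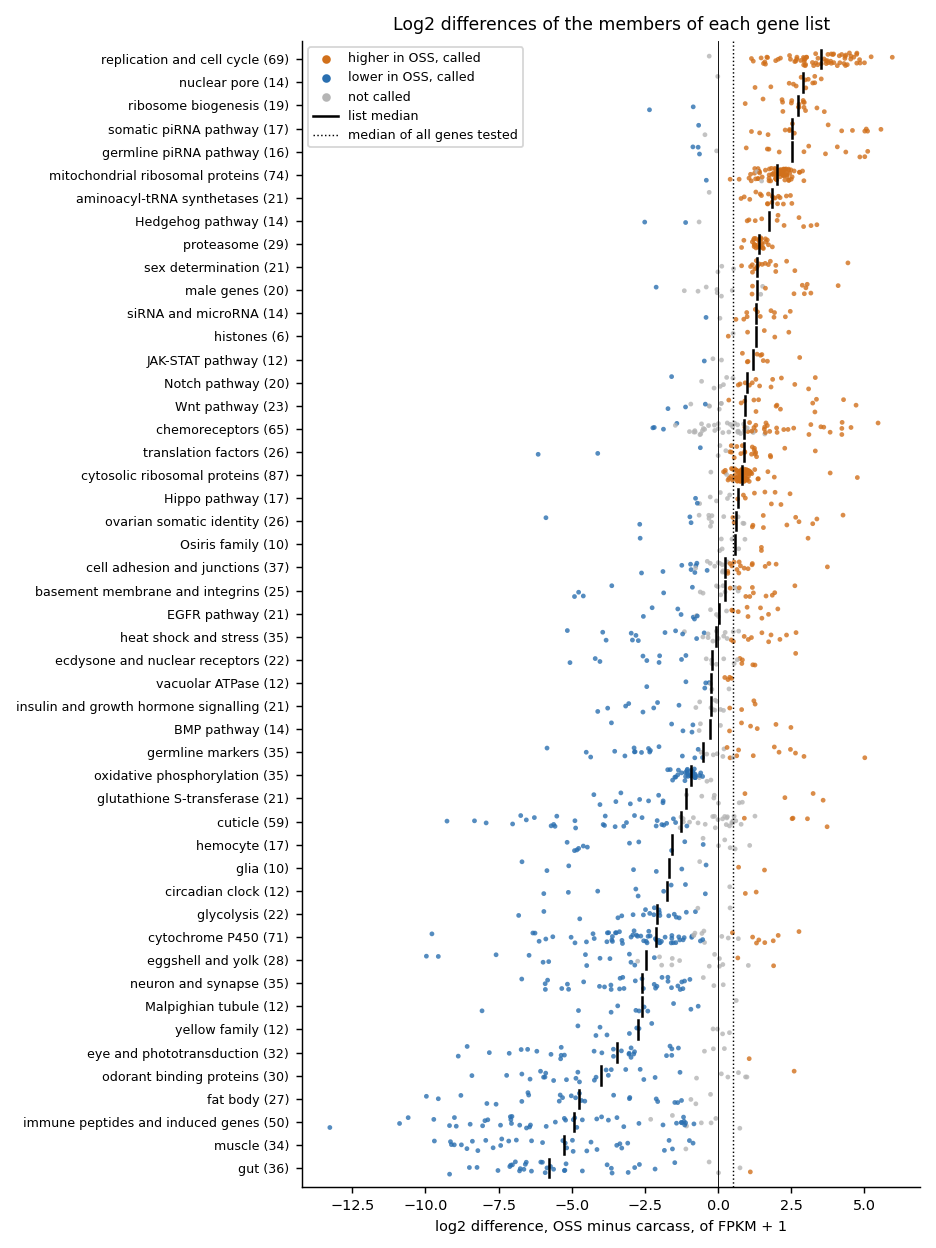
Log2 difference (OSS minus carcass, horizontal axis) of every tested member of each list of at least 5 tested genes, sorted by list median, with the number tested in parentheses. Orange points were called higher in OSS, blue points lower and grey points were not called, the black bar is the list median and the dotted line the median of all genes. Medians ran from -5.79 for gut genes to 3.53 for replication and cell cycle genes.

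Genes that define ovarian somatic cells were called higher in OSS at about the share of all genes. Of 26 tested 12 rose and 4 fell, with a median log2 difference of 0.62 (11 higher against 6 lower after quantile normalization and 7 higher against 9 lower with median-ratio scaling). The Traffic jam gene tj led the list with a difference of 4.27 (adjusted p = 9.08e-06, SE 0.25). The Hedgehog receptor gene ptc, at 37.4 and 36.7 FPKM in OSS against 2.12 and 3.29 FPKM in carcass, had 3.38 (adjusted p = 3.99e-05, SE 0.28). Wnt4, a ligand that acts in escort and follicle cells, had 3.24, and cas, a transcription factor gene of follicle stem cell progeny, had 2.77 with 8.13 and 7.27 FPKM in OSS against 0 and 0.631 FPKM in carcass. On the other side stood hth, a homeodomain cofactor gene, at 0.492 and 0.569 FPKM in OSS against 76.3 and 104 FPKM in carcass, with -5.88 (adjusted p = 4.36e-06, SE 0.26). The homeobox gene ct had -2.68 and Fas3 -0.92 (adjusted p = 0.0014, SE 0.16). Both OSS libraries were thus under 1 FPKM for hth and above 80 FPKM for tj.

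The Hedgehog pathway lay mostly on the OSS side. Of 14 genes tested 11 rose and 2 fell (1 without OSS replicate 1 or carcass replicate 2), with a median of 1.76. The ligand gene hh was at 12.3 and 11.0 FPKM in OSS against 1.67 and 2.49 FPKM in carcass, a difference of 2.05 (adjusted p = 0.000728, SE 0.31). Its acyltransferase gene rasp had 3.18 (adjusted p = 0.000198, SE 0.37), and its co-receptor gene boi and the glypican gene dlp had 2.77 and 2.92. The signal transducer smo and the transcription factor ci had 1.27 and 1.06, and the call for ci was lost without OSS replicate 1, OSS replicate 2 or carcass replicate 1 (0.97 to 1.07). The gene shf, whose product helps Hedgehog spread between cells, fell by 2.51 on the log2 scale. Ligand, receptor, transducer and effector were thus all measured in the same cells, each with both OSS libraries above both carcass libraries. Because hh, smo and ci were chosen after their values were seen, that separation adds no support.

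The 2 largest positive differences in the Wnt list were those of ligand genes, and 14 of 23 genes rose while 3 fell (9 higher against 7 lower with median-ratio scaling). Wnt10 was at 40.6 and 34.6 FPKM in OSS against 0.246 and 0.722 FPKM in carcass, a difference of 4.72 (adjusted p = 9.71e-06, SE 0.28). Wnt2 was at 46.2 and 40.6 FPKM in OSS against 0.729 and 1.97 FPKM in carcass, a difference of 4.29 (adjusted p = 6.84e-05, SE 0.40). Wnt4 was at 31.9 and 25.95 FPKM in OSS against 1.55 and 2.93 FPKM in carcass, a difference of 3.24 (adjusted p = 0.000103, SE 0.33). The founding member wg did not follow them, at 0.516 and 0.569 FPKM in OSS and 0.857 and 3.66 FPKM in carcass with -0.93 (adjusted p = 0.158, SE 0.54), although it was called lower without carcass replicate 1 (-1.59). The gene wls, whose product carries Wnt ligands to the cell surface, had 3.36 (adjusted p = 2.72e-06, SE 0.12), and the destruction complex gene Apc2 had 3.31. The nuclear effector gene pan fell, at 33.7 and 33.3 FPKM in OSS against 108 and 116 FPKM in carcass with -1.71 (adjusted p = 2.66e-05, SE 0.13).

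In the Notch list 13 of 20 genes rose and 1 fell (2 without OSS replicate 2, 14 higher against 3 lower after quantile normalization and 6 higher against 4 lower with median-ratio scaling). The glycosyltransferase gene fng, which tunes the response of Notch to its ligands, was at 217 and 213 FPKM in OSS against 20.9 and 20.3 FPKM in carcass, a difference of 3.32 (adjusted p = 1.56e-05, SE 0.22). The ligand gene Ser had 2.62 (adjusted p = 9.22e-05, SE 0.26), and the target gene HLHm3 of the E(spl) complex had 3.09 (adjusted p = 0.000451, SE 0.42). The inhibitor gene numb was the one that fell, at 7.78 and 6.74 FPKM in OSS against 24.7 and 22.8 FPKM in carcass with -1.59 (adjusted p = 4.34e-05, SE 0.13). Of the 12 JAK-STAT genes 9 rose and 1 fell (7 higher against 2 lower after quantile normalization and 3 higher against 3 lower with median-ratio scaling). The count of 9 was 5 without OSS replicate 1, OSS replicate 2 or carcass replicate 1, and the 1 that fell became 2 without carcass replicate 1. The target gene chinmo led with 2.79 (adjusted p = 7.81e-05, SE 0.27), the receptor gene dome had 1.33, and the transcription factor gene Stat92E itself had -0.47 (adjusted p = 0.00519, SE 0.11), lower in OSS.

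The EGFR and BMP lists had calls in both directions, at shares near the 46.1% and 29.9% of all genes. Of 21 EGFR genes 9 rose and 7 fell (6 higher against 9 lower after quantile normalization and 4 higher against 10 lower with median-ratio scaling). Core parts of the MAP kinase cascade were on the OSS side, with Dsor1 (MEK) at 1.73, phl (Raf) at 1.50 and Sos at 1.45. The inhibitor genes were split, with kek1 at 2.04 (adjusted p = 0.000177, SE 0.23) and argos at -2.55 (adjusted p = 0.000124, SE 0.27). The ligand-processing protease genes rho and stet had -1.26 and -2.25, and the nuclear effector pnt had -1.38, all lower in OSS. Of these, stet was at 3.39 and 6.17 FPKM in carcass and at 95.1 and 91.9 FPKM in ovary. Of 14 BMP genes 6 rose and 5 fell (5 higher against 7 lower after quantile normalization and 2 higher against 8 lower with median-ratio scaling). The ligand gene gbb was at 136 and 131 FPKM in OSS against 19.6 and 26.9 FPKM in carcass, a difference of 2.49 (adjusted p = 7.57e-05, SE 0.24), while the other BMP ligand dpp was at 9.77 and 9.38 FPKM in OSS and 14.2 and 16.0 FPKM in carcass and did not pass the test, with -0.60 (adjusted p = 0.307, SE 0.50). The extracellular regulators cv-2 and sog had 1.98 and -1.59, and tok, a protease that cleaves Sog, had -3.64 (adjusted p = 2.85e-05, SE 0.28). In the Hippo list 9 of 17 genes rose and 2 fell (1 without either OSS replicate), with 7 higher against 3 lower after quantile normalization and 5 higher against 8 lower with median-ratio scaling, and jub at 2.46, sav at 2.15 and the kinase genes hpo and wts at 1.82 and -0.71.

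**Figure D3:**
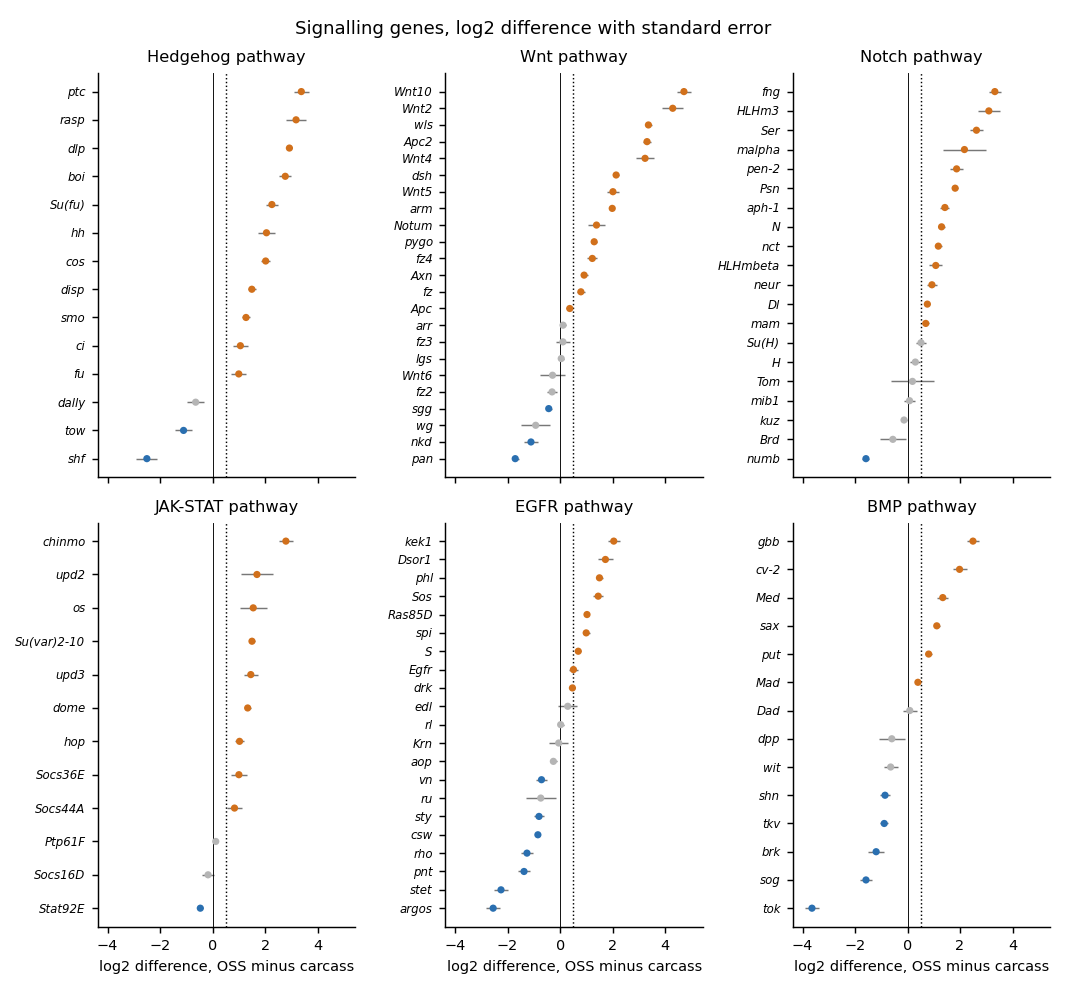
Log2 difference (OSS minus carcass, horizontal axis) with its standard error for every tested gene of 6 signalling pathways. Orange points were called higher in OSS, blue points lower and grey points were not called, and the dotted line is the median of all genes. Wnt10 at 4.72 and ptc at 3.38 head their panels, and tok at -3.64 lies farthest on the other side.

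Clock genes were mostly lower in OSS, and hormone pathway genes went both ways with more lower than higher. Of 22 ecdysone response and nuclear receptor genes 6 rose and 9 fell (4 higher against 11 lower after quantile normalization and 2 higher against 14 lower with median-ratio scaling). The zinc finger gene br, which patterns follicle cells, was at 34.8 and 36.3 FPKM in OSS against 3.85 and 5.97 FPKM in carcass, a difference of 2.65 (adjusted p = 0.00081, SE 0.41), and the receptor partner gene usp had 1.19. Eip63F-1, Eip93F and svp fell with -5.06, -4.20 and -4.04. The ecdysone receptor gene EcR was at 23.9 and 23.1 FPKM in OSS and 24.01 and 31.0 FPKM in carcass and did not pass the test, with -0.21 (adjusted p = 0.195, SE 0.13), but was called lower without carcass replicate 1 (-0.39). Of 21 insulin pathway genes 4 rose and 8 fell (2 higher against 14 lower after quantile normalization and 2 higher against 14 lower with median-ratio scaling). Thor, the translation repressor 4E-BP, had -4.11 (adjusted p = 0.000127, SE 0.44), and the insulin-like peptide genes Ilp2 and Ilp3, made by brain neurons, had -3.77 and -3.05, whereas the growth inhibitors Tsc1 and gig had 1.27 and 1.22. Of 12 clock genes 2 rose and 9 fell (0 higher against 9 lower with median-ratio scaling). The core repressor gene tim was at 0.799 and 0.578 FPKM in OSS against 91.6 and 117 FPKM in carcass, a difference of -5.95 (adjusted p = 4.1e-06, SE 0.26), and the light receptor gene cry had -5.12. The activator gene cyc was on the other side, at 55.2 and 49.7 FPKM in OSS against 20.9 and 20.4 FPKM in carcass with 1.304 (adjusted p = 0.00213, SE 0.24).

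Most piRNA pathway genes of follicle cells were higher in OSS. Of 17 tested 15 rose, 1 fell and 1 was not called, with a median of 2.54. The gene fs(1)Yb had a log2 difference of 5.57 (adjusted p = 5.59e-06, SE 0.28). The helicase gene armi was at 223 and 231 FPKM in OSS against 4.63 and 6.75 FPKM in carcass, a difference of 5.11 (adjusted p = 1.68e-06, SE 0.16). The PIWI protein gene piwi was at 189.9 and 205 FPKM in OSS against 4.08 and 5.89 FPKM in carcass, a difference of 5.07 (adjusted p = 1.4e-06, SE 0.15). In both genes the carcass libraries stood under 7 FPKM. The gene mael, for a factor that acts downstream of Piwi, was at 113 and 112 FPKM in OSS against 1.14 and 4.78 FPKM in carcass, a difference of 5.01 (adjusted p = 3.33e-05, SE 0.40). The co-chaperone gene shu had 4.59 (adjusted p = 5.99e-06, SE 0.23), and zuc, the nuclease gene that forms piRNA ends, had 3.76 (adjusted p = 3.44e-06, SE 0.15). The nuclear silencing partners CG3893 (asterix) and nxf2 had 2.44 and 4.22, and the mitochondrial surface factor CG2183 (Gasz) had 1.42. The exceptions were wde, a cofactor of the histone methyltransferase Eggless, at 10.7 and 10.7 FPKM in OSS against 15.3 and 20.2 FPKM in carcass with -0.66 (adjusted p = 0.00643, SE 0.16), and CG5508 (minotaur), at 49.7 and 45.7 FPKM in OSS and 53.4 and 79.8 FPKM in carcass with -0.45 (adjusted p = 0.0587, SE 0.18). Without carcass replicate 1 CG5508 was called lower in OSS, at -0.73.

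Genes counted to the germline branch were not all silent in OSS. Of 16 genes tested 12 rose and 3 fell, with a median of 2.51. The gene mael, given above with the follicle cell genes, was counted here too. The helicase gene spn-E was at 96.2 and 103 FPKM in OSS against 2.80 and 2.21 FPKM in carcass, a difference of 4.85 (adjusted p = 1.12e-06, SE 0.13). The methyltransferase partner gene vls (Valois) and the Tudor gene krimp had 4.37 and 4.08. CG12721 (now moon), which drives transcription of piRNA clusters, was at 98.6 and 91.8 FPKM in OSS against 1.78 FPKM in carcass replicate 2, and its difference of 5.11 (adjusted p = 8.99e-06, SE 0.23) rests on that single carcass value because replicate 1 has none. The genes that bind germline piRNA clusters, rhi, del and cuff, had 2.09, 1.68 and 2.94. The PIWI protein gene aub was at 12.3 and 9.86 FPKM in OSS against 1.45 and 4.31 FPKM in carcass, a difference of 1.74 (adjusted p = 0.00291, SE 0.35). The helicase gene vas, which defines nuage, was at 3.14 and 2.95 FPKM in OSS against 4.60 and 6.49 FPKM in carcass with -0.68 (adjusted p = 0.00905, SE 0.17), lower in OSS as deposited, 0.30 after quantile normalization and not called in a fit of the 4 libraries alone. The third PIWI gene AGO3 and the scaffold gene tud also fell, with -0.86 (adjusted p = 0.000335, SE 0.11) and -0.63 (adjusted p = 0.00139, SE 0.11). In carcass AGO3 was at 10.9 and 11.0 FPKM and tud at 79.1 and 81.5 FPKM. In the 2 ovary libraries vas was at 167 and 168 FPKM, AGO3 at 148 and 147 FPKM and tud at 95.5 and 106 FPKM. Where these transcripts in carcass came from was not tested. The Tudor gene tej was at 2.10 and 2.75 FPKM in OSS and 2.16 and 2.94 FPKM in carcass, a difference of -0.05 (adjusted p = 0.824, SE 0.18), which was not called as deposited and was 0.75 and called after quantile normalization. Among the remaining genes that the study knocked down, squ, U2A and Ars2 had 2.86, 2.95 and 1.81, and the control target w, an eye pigment transporter, had -1.58.

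**Figure D4:**
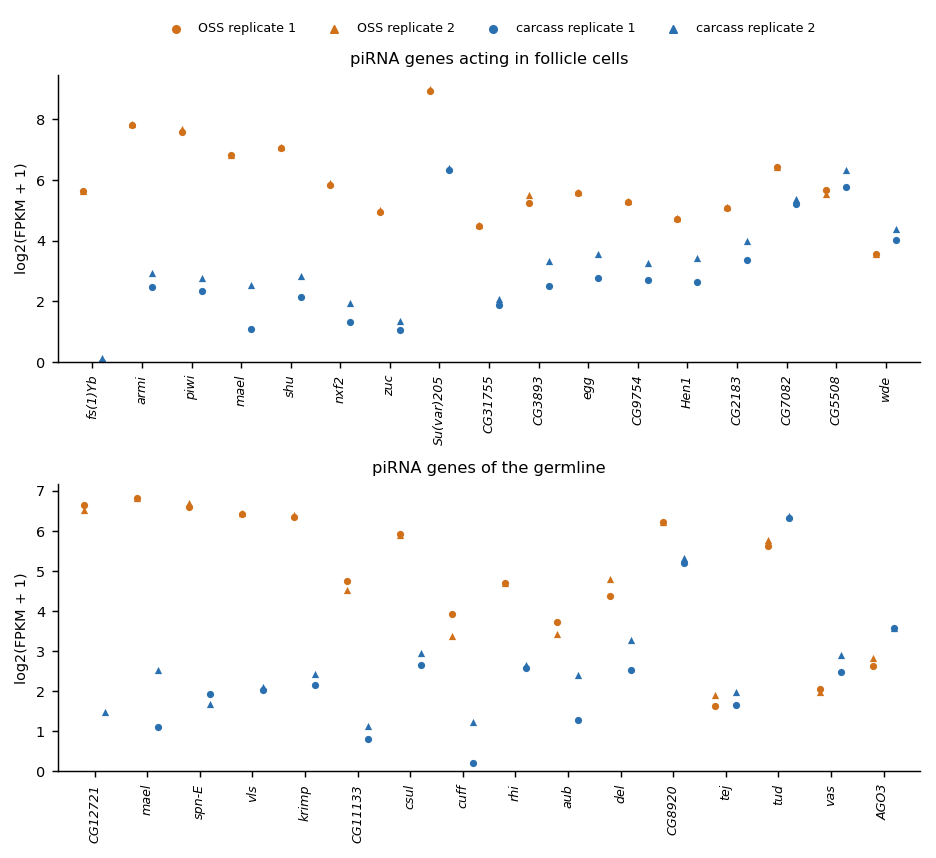
Level of each piRNA pathway gene as log2(FPKM + 1) (vertical axis) in the 2 OSS libraries (orange, left) and the 2 carcass libraries (blue, right), circles for replicate 1 and triangles for replicate 2, sorted by log2 difference within each panel. The OSS points lie well above the carcass points from fs(1)Yb to CG2183 in the upper panel and from CG12721 to del in the lower panel, and at or below them for CG5508, wde, tej, tud, vas and AGO3. CG12721 has no point for carcass replicate 1.

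Other small RNA genes rose as well, in smaller steps. Of 14 siRNA and microRNA genes 12 rose and 1 fell, with a median of 1.31 (7 higher against 2 lower with median-ratio scaling). The exportin gene Ranbp21 had 2.47 (adjusted p = 2.09e-05, SE 0.18), the microprocessor subunit gene pasha 2.30 (adjusted p = 0.000125, SE 0.24) and the Dicer partner gene r2d2 1.93 (adjusted p = 0.00019, SE 0.22). Both effector genes were measured, AGO2 at 176 and 179.6 FPKM in OSS against 90.6 and 87.1 FPKM in carcass with 0.99, and AGO1 at 40.8 and 47.2 FPKM in OSS against 55.0 and 62.6 FPKM in carcass with -0.41 (adjusted p = 0.0117, SE 0.11). AGO1 was the single gene that fell, a call lost without OSS replicate 1 (-0.31).

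More germline markers were lower than higher in OSS, although the ovaries had been taken from the carcass. Of 35 tested 11 rose and 17 fell, with a median of -0.53 (7 higher against 25 lower with median-ratio scaling). The summed level of the list was 588 and 592 FPKM in OSS and 827 and 905 FPKM in carcass. The thioredoxin gene dhd, specific to the female germline, was at 1.43 and 1.87 FPKM in OSS against 152 and 149 FPKM in carcass and 1824 and 1716 FPKM in ovary, with -5.84 (adjusted p = 9.34e-07, SE 0.11). For osk the difference was -4.35 (adjusted p = 2.15e-06, SE 0.15). The genes aret and Rbp9, with -4.50 and -3.53, encode RNA-binding proteins that are also made in muscle or neurons. Levels of aret were 62.1 and 52.0 FPKM in carcass and 402 and 426 FPKM in ovary. Rbp9 was at 173 and 192 FPKM in carcass and only 7.96 and 6.36 FPKM in ovary, the reverse order of dhd, osk and aret. Some cell cycle regulators of the germline, named here for the largest positive differences of the list, went the other way. The gene cort, a meiotic activator of the anaphase-promoting complex, was at 16.0 and 15.4 FPKM in OSS against 0.457 and 2.26 FPKM in carcass. Its difference was 2.94 (adjusted p = 0.000523, SE 0.41), and png and CycB3 had 2.65 and 2.47. Of 28 eggshell and yolk genes 2 rose and 14 fell, and the 2 that rose, dec-1 (0.68) and psd (1.90), were not called without OSS replicate 1, OSS replicate 2 or carcass replicate 1, and dec-1 not without carcass replicate 2 either, while median-ratio scaling put it at -0.22. Yp2 and Yp3 had -9.56 (adjusted p = 2.86e-06, SE 0.36) and -7.59 (adjusted p = 5.39e-06, SE 0.37). Chorion genes differed between the carcass libraries, and Cp38 had -6.46 (adjusted p = 0.000258, SE 0.79) with the 2 carcass values apart.

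Most markers of differentiated body tissues were lower in OSS. Of 34 muscle genes 33 fell and 1 was not called, with a median of -5.26, and the list summed to 1011 and 1012 FPKM in OSS and 20036 and 18239 FPKM in carcass. The troponin gene up was at 0.209 and 0 FPKM in OSS against 986 and 839 FPKM in carcass, a difference of -9.69 (adjusted p = 3.94e-05, SE 0.80), and the myosin light chain gene Mlc1 had -9.14 (adjusted p = 5.89e-06, SE 0.46). The actin gene Act79B had -9.11 (adjusted p = 3.94e-06, SE 0.39) and Mhc -9.01 (adjusted p = 1.12e-06, SE 0.22). These are structural genes of the sarcomere, and in each of them both OSS libraries were under 4 FPKM. Cytoskeletal members of the list that other cells also use kept high levels, such as Tm1, a tropomyosin gene, at 206 and 221 FPKM in OSS against 842 and 691 FPKM in carcass with -1.83.

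Of 35 neuronal genes 32 fell and 3 were not called, with a median of -2.60. The synaptic vesicle genes n-syb and Syt1 had -5.91 (adjusted p = 4.85e-06, SE 0.28) and -5.82 (adjusted p = 7.08e-06, SE 0.31), and Gad1, for the enzyme that makes the transmitter GABA, had -5.90 (adjusted p = 1.94e-05, SE 0.41). The RNA-binding protein gene elav, a general neuronal marker, was at 11.3 and 13.6 FPKM in OSS against 27.2 and 32.7 FPKM in carcass, a difference of -1.20 (adjusted p = 0.00951, SE 0.31). Its call was lost without OSS replicate 1 (-1.07) or carcass replicate 2 (-1.07). Of 32 eye genes 28 fell and 1 rose. For ninaE the difference was -8.88 (adjusted p = 4.53e-06, SE 0.40), and the arrestin genes Arr2 and Arr1 had -8.57 and -7.82. The gene that rose, inaE, encodes a diacylglycerol lipase and stood at 24.5 and 23.1 FPKM in OSS against 9.94 and 11.9 FPKM in carcass with 1.06 (adjusted p = 0.000308, SE 0.14). With median-ratio scaling no eye gene was called higher. Of 10 glial genes 7 fell and 2 rose. Among those that fell were the glutamate transporter gene Eaat1 with -6.70 (adjusted p = 5.06e-06, SE 0.32) and the glial regulator repo with -2.89. Those that rose were loco, a regulator of G protein signalling, at 47.2 and 48.2 FPKM in OSS against 15.6 and 14.9 FPKM in carcass with 1.59 (adjusted p = 2.35e-05, SE 0.12), and moody, a receptor gene of the blood-brain barrier, with 0.70 (adjusted p = 0.0382, SE 0.25), a call lost when any 1 of the 4 libraries was left out and a value of -0.17 with median-ratio scaling.

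Fat body, gut and excretory genes showed the same direction. Of 27 fat body genes 24 fell and 3 were not called, with a median of -4.74. The lipoprotein gene Rfabg was at 0.805 and 0.305 FPKM in OSS against 666 and 689 FPKM in carcass, a difference of -8.79 (adjusted p = 1.57e-06, SE 0.27), and the storage protein gene Lsp2 was at 0.871 and 1.301 FPKM in OSS against 239 and 145 FPKM in carcass, a difference of -6.50 (adjusted p = 1.57e-05, SE 0.43). The gene fit, which signals protein feeding in females, was listed at 0 in both OSS libraries and stood at 172 and 329 FPKM in carcass. The fatty acid synthase gene CG3523 (now FASN1) was at 149 and 154 FPKM in OSS and 155 and 211 FPKM in carcass and did not pass the test, with -0.26 (adjusted p = 0.234, SE 0.18), but did without carcass replicate 1 (-0.48). Of 36 gut genes 32 fell and 1 rose (2 without carcass replicate 2). The digestive protease gene Jon65Aiv was listed at 0 in both OSS libraries and stood at 475 and 701 FPKM in carcass, and the trypsin gene alphaTry had -8.50 (adjusted p = 1.57e-06, SE 0.26). The one that rose was the maltase gene LvpL, at 15.8 and 20.0 FPKM in OSS against 7.68 and 7.84 FPKM in carcass with 1.10 (adjusted p = 0.0056, SE 0.25). No gut gene was called higher with median-ratio scaling or a pseudocount of 0.1, and 2 were after quantile normalization. Of 12 genes of the Malpighian tubule, the excretory organ, 11 fell, among them the urate oxidase gene Uro with -4.77 (adjusted p = 0.000217, SE 0.56).

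**Figure D5:**
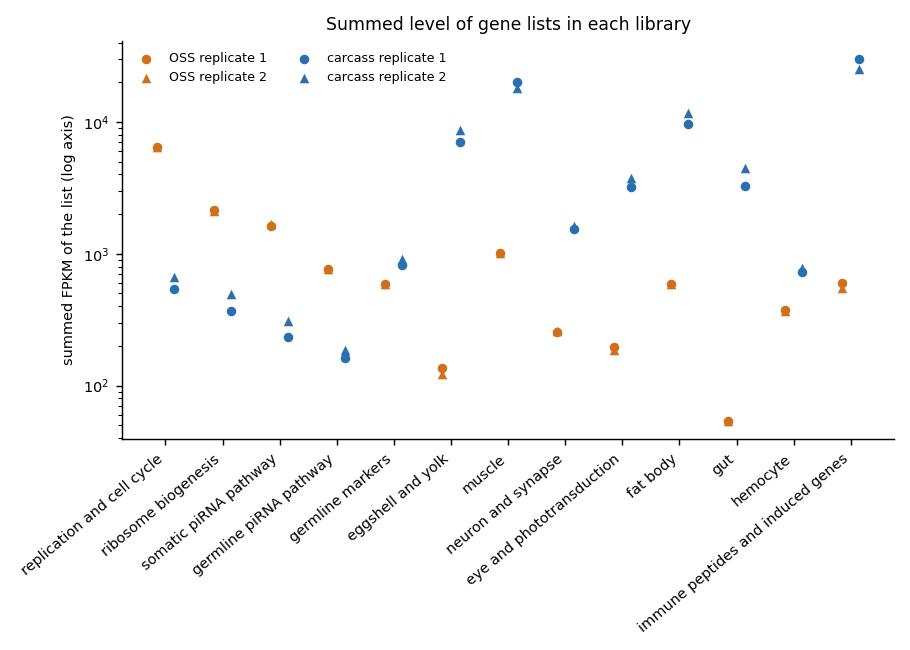
Summed FPKM (vertical axis, logarithmic) of 13 gene lists in the 2 OSS libraries (orange, left) and the 2 carcass libraries (blue, right), circles for replicate 1 and triangles for replicate 2. The lists of cell division, ribosome biogenesis and both piRNA branches lie higher in OSS, and the tissue lists lie higher in carcass. Muscle genes summed to 1011 and 1012 FPKM in OSS and 20036 and 18239 FPKM in carcass.

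Blood cell and immune genes were also lower. Of 17 hemocyte genes 11 fell and 6 were not called (2 rose without carcass replicate 2 and after quantile normalization), with the clotting protein gene Hml at 0.498 and 0.443 FPKM in OSS against 33.2 and 49.7 FPKM in carcass and -4.82 (adjusted p = 2.49e-05, SE 0.36). Of 50 genes for immune peptides and their regulators 43 fell and 7 were not called, with a median of -4.92. The antimicrobial peptide gene Mtk was listed at 0 in both OSS libraries and stood at 1003 and 701 FPKM in carcass. Peptide genes differed between the 2 carcass libraries, as CecA1 stood at 0 and 0 FPKM in OSS and 551 and 112 FPKM in carcass, and AttA at 0.461 and 0 FPKM in OSS and 159 and 30.3 FPKM in carcass. In both of these carcass replicate 1 was the higher one.

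Genes of cell division were higher in OSS with 1 exception. Of 69 replication and cell cycle genes 68 rose, with a median of 3.53, and the list summed to 6464 and 6457 FPKM in OSS and 543 and 668 FPKM in carcass. The replicative helicase gene Mcm3 was at 93.8 and 86.9 FPKM in OSS against 1.58 and 1.29 FPKM in carcass, a difference of 5.23 (adjusted p = 2.62e-06, SE 0.19). The gene Incenp, for the partner of Aurora B in the chromosomal passenger complex, was at 136 and 129.9 FPKM in OSS against 3.16 and 3.20 FPKM in carcass, a difference of 5.00 (adjusted p = 1.12e-06, SE 0.12). The cytokinesis kinesin gene pav had 4.85 (adjusted p = 1.14e-06, SE 0.13). The exception was CycJ, a cyclin gene of the female germline, at 2.43 and 2.41 FPKM in OSS and 1.43 and 6.33 FPKM in carcass, where the 2 carcass values lay on both sides of the OSS values. Without carcass replicate 1 CycJ was called lower in OSS, at -1.10, and without carcass replicate 2 it stood at 0.50. Nuclear pore genes behaved alike, with 13 of 14 higher and a median of 2.91, led by Nup107 at 67.4 and 65.0 FPKM in OSS against 3.69 and 6.24 FPKM in carcass with 3.53 (adjusted p = 3.49e-05, SE 0.28). Of 6 histone genes tested 5 rose (3 higher against 1 lower with median-ratio scaling), and the variant genes His2Av and His3.3A had 2.42 and 1.94.

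Genes of ribosome assembly and of mitochondrial ribosomal proteins were mostly higher in OSS. Cytosolic ribosomal protein genes were so under each scaling but the median-ratio one. Of 19 ribosome biogenesis genes 17 rose and 2 fell, with a median of 2.75. The nucleolar methyltransferase gene Fib (fibrillarin) was at 140.1 and 143 FPKM in OSS against 4.75 and 22.0 FPKM in carcass, a difference of 3.63 (adjusted p = 0.000756, SE 0.55), and the large subunit gene RpI1 of RNA polymerase I had 2.95 (adjusted p = 9.34e-06, SE 0.17). The 2 that fell were the transcription factor genes dm (Myc), at 24.9 and 25.1 FPKM in OSS against 43.0 and 48.7 FPKM in carcass with -0.85 (adjusted p = 0.000339, SE 0.11), and its antagonist Mnt with -2.34 (adjusted p = 7.61e-06, SE 0.13). Of 87 cytosolic ribosomal protein genes 84 rose as deposited, with a median of 0.83, but 6 higher against 14 lower with median-ratio scaling. Larger differences were kept by 2 genes that each have a paralog elsewhere in the list. RpS19b was at 36.0 and 35.3 FPKM in OSS against 1.57 FPKM in carcass replicate 2, the single carcass value it has. Its call was lost without either OSS library. RpS10a was at 29.6 and 23.0 FPKM in OSS and listed at 0 in both carcass libraries. Because such copies share sequence, reads of RpS19b and RpS10a may have been divided with their paralogs. Of 74 mitochondrial ribosomal protein genes 71 rose and 1 fell, with a median of 2.01 (50 higher against 1 lower with median-ratio scaling).

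Translation and protein turnover genes followed. Of 21 aminoacyl-tRNA synthetase genes 20 rose, led by Aats-lys with 2.52 (adjusted p = 3.69e-05, SE 0.21). Of 26 translation factor genes 20 rose and 3 fell as deposited, and 8 higher against 10 lower with median-ratio scaling. The ribosome assembly factor gene eIF6 was at 167 and 178 FPKM in OSS against 12.6 and 21.0 FPKM in carcass, a difference of 3.32 (adjusted p = 1.64e-05, SE 0.22). The elongation factor gene Ef1alpha100E was at 2.20 and 1.45 FPKM in OSS against 207 and 188 FPKM in carcass, a difference of -6.15 (adjusted p = 6.14e-06, SE 0.32). All 29 proteasome genes tested rose, with a narrow range around a median of 1.41 and Pros35 highest at 1.86 (adjusted p = 6.77e-06, SE 0.10). With median-ratio scaling their counts were 13 higher against 0 lower.

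Genes of energy metabolism were mostly lower in OSS. Of 22 genes of glycolysis and sugar metabolism 20 fell and 2 were not called, with a median of -2.10. Tps1, which makes the blood sugar trehalose, was at 1.72 and 1.50 FPKM in OSS against 263 and 325 FPKM in carcass, a difference of -6.81 (adjusted p = 1.97e-05, SE 0.48). The gluconeogenic gene Pepck had -5.95 (adjusted p = 2.76e-05, SE 0.45), and the glycogen phosphorylase gene GlyP -3.42 (adjusted p = 1.19e-06, SE 0.10). The lactate dehydrogenase gene ImpL3 stood apart, at 69.3 and 60.4 FPKM in OSS and 41.2 and 56.9 FPKM in carcass with 0.41 (adjusted p = 0.325, SE 0.36), not called. Of 35 genes of oxidative phosphorylation 32 fell and 3 were not called, with a median of -0.93. The ATP synthase gene blw was at 214 and 222 FPKM in OSS against 668 and 688 FPKM in carcass, a difference of -1.63 (adjusted p = 0.0011, SE 0.27). The vacuolar ATPase, the proton pump of acidic compartments, was divided, with 4 of 12 genes higher and 5 lower (1 higher against 4 lower after quantile normalization and 0 higher against 11 lower with median-ratio scaling, and 0 to 2 higher when any 1 of the 4 libraries was left out). Its subunit gene Vha68-1 was at 9.62 and 10.2 FPKM in OSS against 54.1 and 62.2 FPKM in carcass, a difference of -2.44 (adjusted p = 0.000124, SE 0.26). Respiratory chain genes and the mitochondrial ribosomal protein genes above thus lay on opposite sides in the same libraries.

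Extracellular matrix genes were divided by molecule. Of 25 genes of the basement membrane and its receptors 10 rose and 6 fell, near the shares of all genes (9 higher against 10 lower after quantile normalization and 3 higher against 11 lower with median-ratio scaling). The collagen IV genes Cg25C and vkg were at 2.14 and 2.56 FPKM and 1.92 and 2.62 FPKM in OSS against 99.9 and 98.5 FPKM and 80.6 and 75.5 FPKM in carcass, with -4.91 (adjusted p = 4.53e-06, SE 0.22) and -4.60 (adjusted p = 6.88e-06, SE 0.24). The proteoglycan-like gene Ppn had -4.76. The laminin genes were on the other side, with LanA at 158 and 169 FPKM in OSS against 23.6 and 27.8 FPKM in carcass and 2.63 (adjusted p = 1.05e-05, SE 0.16), LanB1 at 1.94 and wb at 1.85. Of 37 adhesion and junction genes 17 rose and 9 fell as deposited, again near those shares (8 higher against 16 lower after quantile normalization and 4 higher against 22 lower with median-ratio scaling). The transmembrane adhesion gene Nrt was at 214 and 229 FPKM in OSS against 18.0 and 13.6 FPKM in carcass, a difference of 3.74 (adjusted p = 3.07e-06, SE 0.14). The beta-catenin gene arm had 1.98 (adjusted p = 1.68e-06, SE 0.06) and Fas2, a relative of NCAM, 1.74 (adjusted p = 8.12e-05, SE 0.17). The innexin gene zpg, which joins germ cells to somatic cells, had -2.61 (adjusted p = 0.000435, SE 0.36). It was at 6.06 and 11.7 FPKM in carcass and at 175 and 180 FPKM in ovary.

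Chaperone genes went both ways as deposited. Of 35 heat shock and stress genes 11 rose and 12 fell (6 higher against 19 lower with median-ratio scaling). Hsp83, the fly Hsp90, was at 1484 and 1456 FPKM in OSS against 343 and 334 FPKM in carcass, a difference of 2.11 (adjusted p = 1.19e-06, SE 0.06), and the mitochondrial chaperonin gene Hsp60 had 2.34 (adjusted p = 4.42e-06, SE 0.10). The small heat shock protein genes Hsp22 and Hsp23 were at 35.8 and 42.9 FPKM and 23.4 and 17.0 FPKM in OSS against 546 and 592 FPKM and 321 and 320.2 FPKM in carcass, with -3.83 (adjusted p = 1.41e-05, SE 0.25) and -3.94 (adjusted p = 5.2e-05, SE 0.35). The inducible gene Hsp70Ba, which has near-identical copies among which reads may have been divided, had -2.97.

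In the families of detoxification, smell and cuticle more genes were lower than higher. Of 71 cytochrome P450 genes 54 fell and 8 rose, the second count being 5 without OSS replicate 2 (2 higher against 58 lower with median-ratio scaling). Cyp4g1, which makes the hydrocarbons of the cuticle, was at 2.40 and 0.165 FPKM in OSS against 1772 and 1717 FPKM in carcass, a difference of -9.78 (adjusted p = 6.38e-06, SE 0.51). Cyp9c1 was at 109 and 111 FPKM in OSS against 10.4 and 22.4 FPKM in carcass, a difference of 2.77 (adjusted p = 0.000535, SE 0.39). Of 21 glutathione S-transferase genes 4 rose and 10 fell (2 higher against 13 lower with median-ratio scaling), with GstD3 at 309.6 and 325 FPKM in OSS against 21.8 and 29.5 FPKM in carcass and 3.59 (adjusted p = 8.36e-05, SE 0.35), and GstE10 at -4.24. Of 30 odorant binding protein genes 23 fell and 1 rose, a call lost without OSS replicate 1 or carcass replicate 1, and Obp99c had -8.41 (adjusted p = 7.88e-06, SE 0.46). Of 59 cuticle protein genes 29 fell, 5 rose and 25 were not called, the second count being 2 without OSS replicate 1 and 3 without OSS replicate 2 (3 higher against 29 lower with median-ratio scaling). Cpr49Ae had -8.32 (adjusted p = 3.06e-06, SE 0.32), and on the other side Cpr50Ca was at 9.24 and 10.2 FPKM in OSS against 0.0556 and 0.567 FPKM in carcass with 3.06 (adjusted p = 0.00032, SE 0.39). Of 12 genes of the yellow family, which shape pigment and eggshell, 8 fell and none rose (1 without carcass replicate 1), with yellow-c at 4.43 and 3.49 FPKM in OSS against 66.1 and 69.1 FPKM in carcass and -3.80 (adjusted p = 5.57e-05, SE 0.34).

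Among chemoreceptor genes more were higher than lower in OSS. Of 65 tested 28 rose and 4 fell, the second count being 9 without carcass replicate 1 (16 higher against 9 lower with median-ratio scaling). The share that rose was near that of all genes. The ionotropic receptor gene Ir40a, which serves the sensing of dry air in the antenna, was at 62.5 and 61.7 FPKM in OSS against 0.183 and 0.716 FPKM in carcass, a difference of 5.47 (adjusted p = 7.06e-06, SE 0.29). Its relatives Ir75a and Ir75c were at 20.0 and 23.1 FPKM and 23.96 and 25.6 FPKM in OSS against 0 and 0.433 FPKM and 0 and 0.219 FPKM in carcass, with 4.23 (adjusted p = 2.68e-05, SE 0.32) and 4.54 (adjusted p = 1.42e-05, SE 0.29). The gustatory receptor gene Gr28a had 4.24 (adjusted p = 3.03e-05, SE 0.33). The odorant co-receptor gene Or83b (Orco) was lower, at 1.07 and 0.223 FPKM in OSS against 5.95 and 6.98 FPKM in carcass with -2.23 (adjusted p = 0.00106, SE 0.36). Thus 4 receptor genes stood above 20 FPKM in at least 1 OSS library and under 1 FPKM in both carcass libraries.

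Sex determination genes were mostly raised. Of 21 tested 18 rose and 3 were not called, with a median of 1.35 (11 higher against 2 lower with median-ratio scaling). The proneural gene sc, which also counts X chromosomes in the embryo, was at 28.6 and 24.3 FPKM in OSS against 0 and 0.591 FPKM in carcass, a difference of 4.44 (adjusted p = 0.000144, SE 0.48). The histone acetyltransferase gene mof of the dosage compensation complex had 2.62 (adjusted p = 1.71e-05, SE 0.18). The switch gene Sxl was at 103 and 111 FPKM in OSS and 92.7 and 102 FPKM in carcass and did not pass the test, with 0.13 (adjusted p = 0.326, SE 0.11). The noncoding RNA gene roX1, which in males belongs to the dosage compensation complex, was at 43.5 and 49.4 FPKM in OSS against 2.87 and 6.14 FPKM in carcass, a difference of 3.17 (adjusted p = 0.000266, SE 0.39). Of 20 genes expressed mainly in males 10 rose and 1 fell (6 higher against 1 lower with median-ratio scaling). The share that rose was near the 46.1% of all genes. For 5 of the 20 carcass replicate 1 had no value, so their comparison rests on carcass replicate 2 alone.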

How the data were processed

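Gene levels were measured by sequencing total RNA depleted of ribosomal RNA, and the deposited values are FPKM per gene symbol, made by the authors. Per the submitters' processing notes the tools were Cufflinks, TopHat, Bowtie and CASAVA 1.3, on the build dm3. The annotation, filters and read totals behind the values are unknown. The deposited column of carcass replicate 1 was entered as other, having 1068 blank lines and 2 that read OK; these and 5 dashes in carcass replicate 2 count as missing. Names that occurred repeatedly (93 names, 255 lines) were dropped. Values were used without further normalization.

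Genes at 1 FPKM or more in at least 2 of the 8 gene libraries of the series were tested on log2(FPKM + 1) with limma 3.58.1 in R 4.3.3 (lmFit, eBayes with trend) in 1 fit over OSS, carcass, ovary and embryo, which share 1 estimate of the spread with 4 residual degrees of freedom. That estimate was taken as equal in all groups, although the median gap between 2 libraries was 0.111 in OSS and 0.348 in carcass. Tests were 2-sided, with Benjamini-Hochberg adjustment over 11488 genes. Of these, 289 had no value in carcass replicate 1 and were fitted without it, and 87 of them were called. The fit was tested on simulated data. The alternatives were other scalings, pseudocounts and filters, other fits, and leaving out each library.

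Members and gene lists were chosen with earlier results of these data known. Names wrongly matched to the lists of glia, cytochrome P450 and histone genes were removed after values were seen. A rule picked 357 genes. These were the 12 largest called differences in each direction and up to 4 called members per list and direction. Added to them were uncalled members where a list had at most 3, the genes the study knocked down and defining markers. The text names 210 genes and leaves out many that the rule picked. Among those left out are uncalled tissue markers, such as Strn-Mlck of the muscle list, Ddc and comt of the neuronal list and Best2 of the Malpighian tubule list. Outside this rule 12 genes (hh, smo, ci, dome, wg, EcR, nxf2, krimp, AGO2, Tm1, CecA1 and AttA) were chosen after their values were seen. Symbols are those of the files, with current names from the RefSeq annotation of Release 6, in which 11308 of the tested names were found; that is another build than dm3, so no positions are given.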

Additional observations from a re-analysis of the deposited data

How the results depend on the processing

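Over 15 alternatives the count of genes called lay between 7628 (without OSS replicate 1) and 8748 (without genes near 0 in 1 library of a pair, an alternative chosen after seeing the data), against 8733. Genes called higher in OSS numbered 3264 after median-ratio scaling, against 5295 as deposited, and between 4572 and 5410 when 1 library was left out; genes called lower numbered 4635 after median-ratio scaling, against 3438. Of the 201 called genes named in the text, 186 kept direction and call under all alternatives that gave them a value. After quantile normalization 5 named genes changed sign: CycJ (0.51), ImpL3 (-0.15), Sxl (-0.21), tej (0.75) and vas (0.30). After median-ratio scaling ImpL3 (-0.48), Sxl (-0.77), dec-1 (-0.22) and moody (-0.17) did so. Without single libraries CycJ lay between -1.10 and 0.50 and tej between -0.21 and 0.11 (0.09 without OSS replicate 1). The cause was not tested. With the replicate number as a block 8647 genes were called. Deviations of equal numbers in OSS and carcass had a correlation of -0.057. With 2 libraries per group this value cannot tell whether equal numbers share a day or preparation, and the labels do not say. The planned search of promoter sequences was not run, because no sequences were at hand. Read totals are unknown, so the depth behind low FPKM cannot be given, and 2 libraries per group limit the precision.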
